A study of Mus musculus with 6 samples.

Results

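Receptor tyrosine kinases and the growth factors that activate them were followed through bulk RNA-Seq of NIH3T3 cells, a mouse embryonic fibroblast line that grows without limit. The set holds 49 genes of the 55401 in the count tables, matched by gene symbol, of which 23 encode receptors, 25 encode ligands and 1 (Fgf13) encodes an intracellular relative of the fibroblast growth factors. All 49 symbols matched 1 Ensembl identifier each. The cells carried an empty vector and received DMSO (EV, 2 libraries), expressed TAZ-CAMTA1 and received DMSO (TC, 1 library), or expressed TAZ-CAMTA1 and received aurintricarboxylic acid at 10 μM (TC + ATA, 3 libraries), with 48 h of treatment in every group. TAZ-CAMTA1 is a fusion of the transcriptional co-activator TAZ with CAMTA1 that drives genes through TEAD transcription factors, and ATA is a small molecule that the study tested against the binding of TAZ to TEAD. The comparisons ask how the expression of TAZ-CAMTA1 and the addition of ATA go with the transcript levels of these receptors and ligands. No group combined the empty vector with ATA, so TC + ATA differs from EV in both vector and drug, and the labels do not say whether the libraries of a group came from separate cultures, so p-values measure only the spread between these samples, which may be technical.

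A receptor tyrosine kinase spans the plasma membrane, and binding of its ligand brings receptors together so that their kinase domains phosphorylate each other and recruit adaptors of the RAS-MAPK and PI3K pathways. Fibroblasts are classic responders to platelet-derived and fibroblast growth factors, and they also secrete factors such as HGF and FGF7 that act on epithelial cells nearby. Discoidin domain receptors differ from the other members in being activated by collagen, the main matrix protein that fibroblasts make. RNA-Seq of transcripts measures neither the secretion of a ligand nor the phosphorylation of a receptor.

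Library totals ran from 58471484 to 74413193 counts. CPM, the count relative to a library's TMM-normalized size, compares 1 gene between libraries. RPKM also divides by the exonic length and compares genes with each other. That length joins all annotated exons of a gene, so such comparisons are approximate where the expressed transcript is shorter. The floor of 3 counts corresponded to between 0.0393 and 0.0528 CPM, a limit that covers counting error only. The chi-square statistic of the counts per degree of freedom was 61.3 between the EV libraries, against 5.86 to 6.61 between TC + ATA libraries, so the EV libraries stood further apart than the replicates of the treated group. The fibroblast markers Col1a1, Col1a2, Vim, Fn1 and Col3a1 were abundant, with 830.5 to 977 CPM for the last and more for the others, whereas Fap, Lum and Dcn reached at most 0.455, 2.18 and 21.9 CPM. Of the 10 fibroblast markers, Col1a1 and Vim were called higher and Fn1, Thy1, Dcn and Lum lower from EV to TC, and the part of these changes in the results was not tested. The summed level of all 10 fibroblast markers was 14204 to 16354 CPM in EV, 18323 in TC and 17906 to 19078 in TC + ATA. The 5 epithelial markers summed to at most 0.494 CPM, the 5 endothelial markers to at most 3.18, the 5 blood markers to at most 9.48, the 5 neural markers to at most 9.35 and the 4 muscle markers to at most 43.1 CPM in any library, the last almost entirely from Des. Wwtr1, the mouse gene of TAZ, had 104 to 110.3 CPM in EV, 139 CPM in TC and 129 to 131 CPM in TC + ATA, while Camta1, the gene of its fusion partner, had 15.4 to 18.9 CPM in EV, 19.2 CPM in TC and 18.4 to 18.8 CPM in TC + ATA, and only Wwtr1 was called higher from EV to TC (edgeR adjusted p = 0.00697, against 0.411 for Camta1). The gene counts do not separate reads of the introduced fusion from those of the cells' own genes. SE denotes the standard error of a log2 fold change. In bulk RNA a change in the number of cells of a type and a change in RNA per cell cannot be told apart.

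Of the 49 members, 40 passed edgeR's filter on low counts, 15 of them averaging at least 50 CPM, 11 with 5 to 50 CPM and 14 below 5 CPM. The 9 that did not pass were the receptors Erbb4, Fgfr3, Kit and Ntrk2 and the ligands Pdgfd, Tgfa, Fgf5, Fgf9 and Ntf3, with at most 10 counts in any library. Erbb4 had 0 counts in all 6 libraries, and Kit had 2 counts in 1 TC + ATA library and 0 elsewhere. Per length, the receptors of highest level in EV were Pdgfra at 41.2 ± 1.26 RPKM (SD, n = 2), Ddr2 at 34.8 ± 0.713, Fgfr1 at 32.2 ± 0.323, Ptk7 at 24.4 ± 0.822 and Pdgfrb at 20.1 ± 1.65 RPKM. In TC the order of the receptors was different, with Ddr2 at 54.4 RPKM and Ddr1 at 52.0 RPKM at the top, Fgfr1 at 36.8 RPKM below them and Pdgfra at 18.0 RPKM. In TC + ATA, Ddr1 stood at 55.6 ± 2.52 RPKM (SD, n = 3) and Ddr2 at 52.3 ± 0.271 RPKM, with each Ddr1 value (53.5 to 58.4 RPKM) above each Ddr2 value (52.0 to 52.5 RPKM). Among the ligands, Fgf7 had the highest level in EV at 72.4 ± 5.13 RPKM (SD, n = 2), followed by Pdgfc at 15.5 ± 1.08 and Bdnf at 11.7 ± 0.949 RPKM. In TC it was Pdgfa that had the highest level at 23.7 RPKM, followed by Fgf7 at 17.7 and Kitl at 17.2 RPKM.

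**Figure D1:**
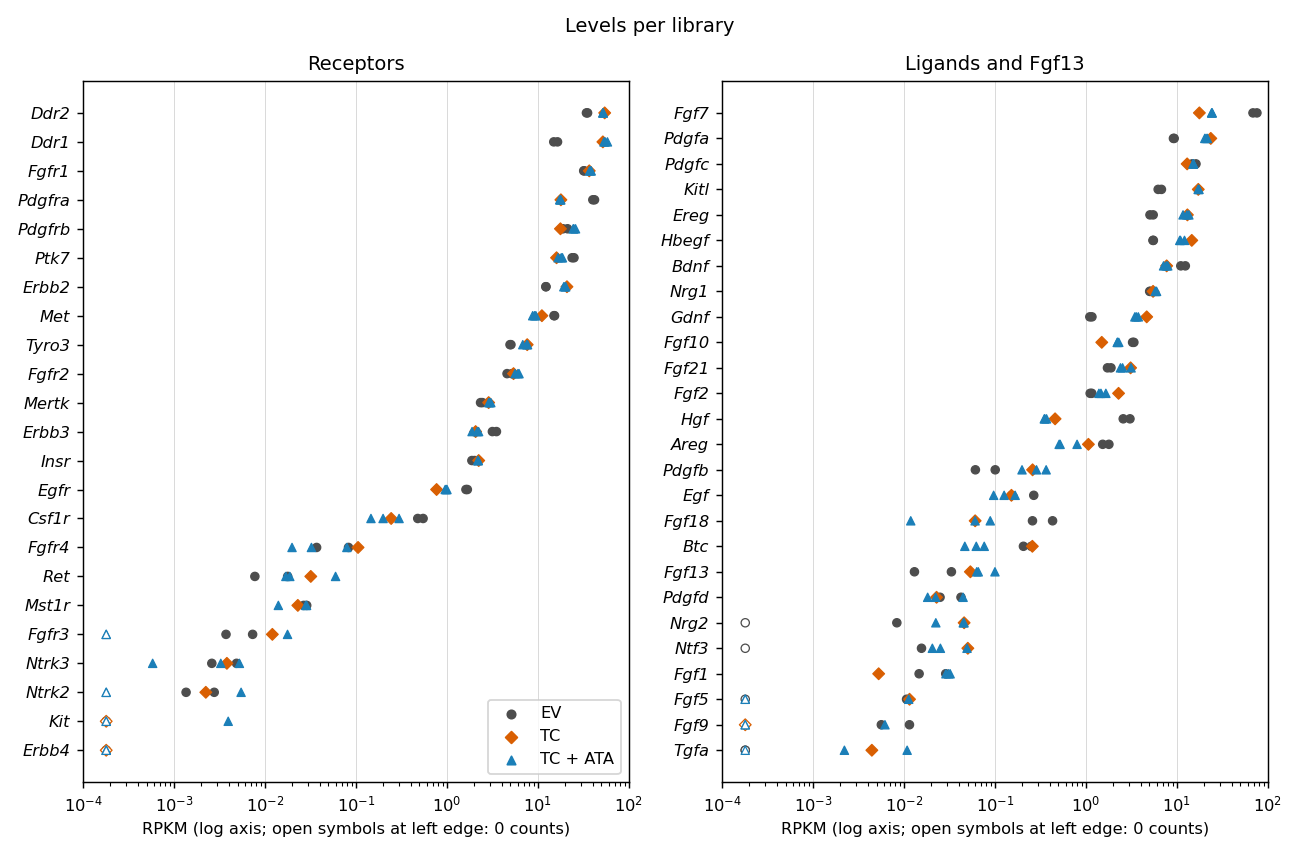
Level of each of the 49 members in every library, in RPKM on a log axis, with receptors on the left and ligands with Fgf13 on the right, ordered by mean level. Circles are the 2 EV libraries, diamonds the TC library and triangles the 3 TC + ATA libraries, and open symbols at the left edge are libraries with 0 counts. The members span from 0 counts for Erbb4 to above 40 RPKM for Ddr2, Ddr1, Pdgfra and Fgf7 in at least 1 group.

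Between TC and EV, 12 of the 40 tested members were higher and 9 were lower at an adjusted p of at most 0.05 from edgeR's quasi-likelihood test, against 14.8% and 13.2% of all 18539 genes tested. The members that rose were the receptors Ddr1, Ddr2, Erbb2 and Tyro3 and the ligands Gdnf, Pdgfb, Hbegf, Kitl, Pdgfa, Ereg, Fgf2 and Fgf21. Those that fell were the receptors Pdgfra, Egfr, Erbb3, Ptk7 and Met and the ligands Hgf, Fgf7, Fgf10 and Bdnf. A rise of at least 1 on the log2 scale was called for 8 members, against 5.56% of all genes tested, and a fall of that size for 5, against 4.08%. With the additional limit of 2 on the log2 fold change that the study used, Gdnf alone remained among the members that rose. Among those that fell, Hgf and Fgf7 remained. At this limit 438 of all 18539 genes tested were higher and 236 lower. The median log2 fold change over the 40 tested members was 0.16, and it was −0.03 over all genes tested. More reads give a gene a smaller error, and of the 26 members with at least 5 CPM 19 (73.1%) were called, against 39.7% of the 10424 genes with at least 5 CPM. This limit is a floor and does not match the levels above it, where 15 of the members averaged at least 50 CPM. TC has 1 library, whose spread is assumed to equal that of the EV and TC + ATA libraries in the shared fit with 3 residual degrees of freedom. Leaving out either EV library leaves 1 library on each side. More of all genes tested were then called, in both directions, so member counts from those fits are not set beside the shares above. With libraries scaled by size alone, 11 members were called higher and 11 lower, while the share of higher genes among all calls moved from 52.7% to 39.6%.

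Between TC + ATA and EV, where each side has replicates, 17 of the 40 tested members were higher and 13 lower by the same test, against 18.0% and 18.6% of all genes tested. Of the 26 members with at least 5 CPM, 24 (92.3%) were called, against 49.9% of the genes above the same floor. The median log2 fold change was 0.23 over the tested members and −0.01 over all genes tested. This comparison shares its EV libraries with that of TC and EV, so both sets of values are not independent. Leaving out either EV library leaves 1 library in that group, and more of all genes tested were then called in both directions. When libraries were scaled by size alone, 11 members were higher and 13 lower, with Fgf2, Fgf21, Fgfr1, Fgfr2, Mertk and Nrg1 no longer called, and the share of higher genes among all calls moved from 49.2% to 38.2%.

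**Figure D2:**
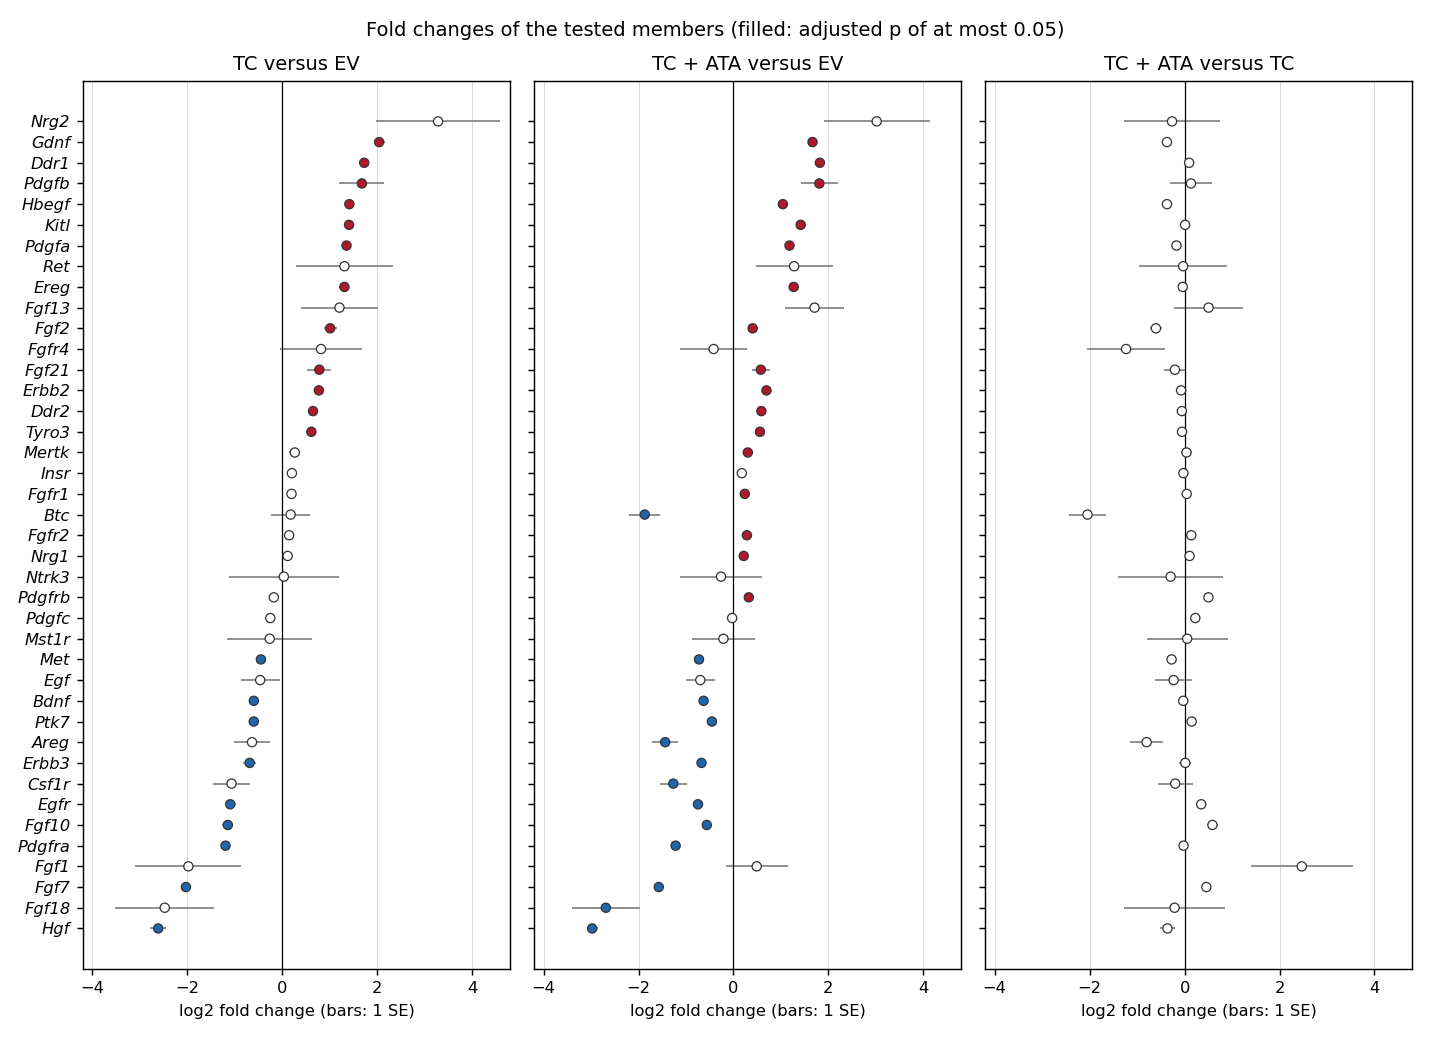
Log2 fold changes of the 40 tested members from EV to TC (left), TC + ATA versus EV (middle) and TC + ATA versus TC (right), ordered by the first. Points are edgeR estimates with bars of 1 standard error, red for members called higher and blue for members called lower at an adjusted p of at most 0.05, and open where not called. The left and middle panels hold 21 and 30 filled points, and the right panel holds none.

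The discoidin domain receptors were both higher in TC. Ddr1 (chromosome 17, 35681567 to 35704621 in GRCm38), usually described as the epithelial member of the pair, had 78.8 and 71.6 CPM in EV, 248 CPM in TC and 279, 255 and 262 CPM in TC + ATA. Its 4 TC-expressing libraries all lay more than 3 times above both EV libraries, and the log2 fold change from EV to TC was 1.72 (SE 0.09, edgeR adjusted p = 2.51e-06), which is 3.30-fold. Ddr2 (chromosome 1, 169972307 to 170110762), the form typical of mesenchymal cells, had 318 and 327 CPM in EV, 504 CPM in TC and 481, 486 and 485 CPM in TC + ATA. It rose by less, with a log2 fold change of 0.65 (SE 0.08, edgeR adjusted p = 0.000413). From TC to TC + ATA the estimates were 0.10 for Ddr1 and −0.06 for Ddr2, with 95% intervals of −0.11 to 0.30 and −0.24 to 0.12. Relative to EV, ATA-treated cells had log2 fold changes of 1.82 and 0.59 for the pair (edgeR adjusted p = 3.27e-07 and 0.000108).

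In the PDGF family the receptor alpha chain fell while a ligand that binds it rose. Pdgfra (chromosome 5, 75152292 to 75198215), which encodes the receptor for PDGF-AA, PDGF-BB and PDGF-CC, had 404 and 422 CPM in EV, 180.1 CPM in TC and 179, 178 and 175 CPM in TC + ATA. Every TC-expressing library was below both EV libraries, and the log2 fold change from EV to TC was −1.20 (SE 0.09, edgeR adjusted p = 1.31e-05), a level 2.29-fold lower. Pdgfa (chromosome 5, 138976014 to 138997370), whose product homodimer binds the alpha receptor, had 28.6 and 29.2 CPM in EV, 73.8 CPM in TC and 67.7, 65.5 and 63.4 CPM in TC + ATA. Its log2 fold change was 1.35 (SE 0.08, edgeR adjusted p = 4.56e-06), and no EV library reached the level of a TC-expressing one. Exons of Pdgfa share 26.1% of their bases with a gene on the opposite strand, 6330403L08Rik, which had between 675 and 950 counts per library against 2143 to 5121 for Pdgfa. Pdgfb, the ligand of both PDGF receptors, was at a low level, with 19 and 32 counts in EV, 75 in TC and 47, 108 and 83 in TC + ATA, and a log2 fold change of 1.67 (SE 0.48, edgeR adjusted p = 0.0284). The call of Pdgfb was lost without EV replicate 1 (adjusted p = 0.0551) and without TC + ATA replicate 3 (adjusted p = 0.0667, both from edgeR).

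Pdgfrb, the beta chain, followed neither pattern, with 117 and 104 CPM in EV, 97.3 CPM in TC and 143, 137 and 134 CPM in TC + ATA. The TC library lay below both EV libraries and all 3 TC + ATA libraries lay above both groups. Its log2 fold change was −0.18 from EV to TC (edgeR adjusted p = 0.195, and 0.0232 with libraries scaled by size alone), 0.32 from EV to TC + ATA (SE 0.07, edgeR adjusted p = 0.00609) and 0.50 from TC to TC + ATA (edgeR adjusted p = 0.0545). Pdgfc, a ligand of the alpha receptor, had 82.7 and 75.0 CPM in EV, 66.2 CPM in TC and 77.2, 77.7 and 77.1 CPM in TC + ATA. Its TC library was the lowest of the 6, and the log2 fold change from EV to TC was −0.25 with an adjusted p of 0.0580 from edgeR, which passed the limit when libraries were scaled by size alone (edgeR adjusted p = 0.00945). From EV to TC + ATA its estimate was −0.03, with a 95% interval of −0.17 to 0.12. Pdgfd was not tested, with 4 to 10 counts per library.

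Receptors and ligands of the ERBB family also moved in both directions. Egfr (chromosome 11, 16752203 to 16918158), the EGF receptor, had 19.1 and 18.4 CPM in EV, 8.74 CPM in TC and 10.9, 11.4 and 11.2 CPM in TC + ATA. It fell by 1.10 on the log2 scale in TC (SE 0.11, edgeR adjusted p = 0.000128), with the TC library below every other and the TC + ATA libraries between it and EV. Erbb3, a receptor for neuregulins with little kinase activity of its own, had 19.1 and 21.1 CPM in EV, 12.5 CPM in TC and 13.0, 13.5 and 11.4 CPM in TC + ATA, and a log2 fold change of −0.69 (edgeR adjusted p = 0.00511). Erbb2 (chromosome 11, 98412470 to 98437716), the ligandless partner that pairs with the other ERBB receptors, was instead higher, with 64.1 and 64.0 CPM in EV, 109 CPM in TC and 104, 106 and 101 CPM in TC + ATA. Its EV libraries differed by less than 1 CPM, and its log2 fold change was 0.77 (SE 0.08, edgeR adjusted p = 8.84e-05). Per length, Erbb2 stood at 20.9 RPKM in TC, Erbb3 at 2.07 and Egfr at 0.772 RPKM.

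Hbegf and Ereg rose in TC, where they had the highest levels per length of the ERBB ligands, 14.6 and 13.1 RPKM against 5.49 RPKM for Nrg1. Hbegf, which encodes heparin-binding EGF-like growth factor, had 26.4 and 26.7 CPM in EV, 70.7 CPM in TC and 53.0, 52.1 and 58.8 CPM in TC + ATA. Ereg (chromosome 5, 91074622 to 91093646), which encodes epiregulin, had 20.9 and 22.7 CPM in EV, 54.0 CPM in TC and 48.4, 53.3 and 56.0 CPM in TC + ATA. Both lay above EV in every TC-expressing library. The log2 fold changes from EV to TC were 1.41 for Hbegf and 1.31 for Ereg (SEs 0.09 and 0.10, edgeR adjusted p = 8.12e-06 and 2.54e-05). Areg, the amphiregulin gene, went the other way at a low level, with 163 and 142 counts in EV, 90 in TC and 36, 69 and 43 in TC + ATA. It was lower in TC + ATA than in EV (log2 fold change −1.44, SE 0.27, edgeR adjusted p = 0.00311) and was not called from EV to TC (−0.64, edgeR adjusted p = 0.245). Btc, the betacellulin gene, had 85 and 71 counts in EV, 81 in TC and 12, 20 and 24 in TC + ATA. The TC library, at 1.17 CPM, was just above the EV libraries at 1.14 and 0.931 CPM, and the TC + ATA libraries held at most 0.345 CPM, for a log2 fold change of −1.87 from EV to TC + ATA (SE 0.33, edgeR adjusted p = 0.00217).

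Nrg1, a neuregulin that binds ERBB3 and ERBB4, was at a similar level throughout, with 53.0 and 52.1 CPM in EV, 56.8 CPM in TC and 61.0, 62.1 and 60.0 CPM in TC + ATA. Its log2 fold change from EV to TC was 0.11, with a 95% interval of −0.06 to 0.29, and from EV to TC + ATA it was 0.22 (edgeR adjusted p = 0.0179). The latter call was lost with libraries scaled by size alone and when any 1 of the TC + ATA libraries was left out. Nrg2 had 0 and 2 counts in EV, 10 in TC and 4 to 10 in TC + ATA, and was not called. Egf, with 129 and 230 counts in EV, 119 in TC and 107, 101 and 76 in TC + ATA, was not called in any comparison, and its log2 fold change from EV to TC + ATA was −0.70 (edgeR adjusted p = 0.106). Tgfa had at most 4 counts in a library and was not tested.

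Among the fibroblast growth factors Fgf7 and Fgf10 fell in TC, while Fgf2 and Fgf21 rose. Fgf7 (chromosome 2, 126034658 to 126091185), also known as keratinocyte growth factor, a stromal ligand of the epithelial form of FGFR2, had 224 and 247 CPM in EV, 57.5 CPM in TC and 79.0, 78.5 and 79.6 CPM in TC + ATA. The EV libraries exceeded every TC-expressing library more than 2-fold, and the log2 fold change from EV to TC was −2.03 (SE 0.10, edgeR adjusted p = 1.37e-06), 4.09-fold lower. Fgf10, which binds the same receptor form, had 15.0 and 15.5 CPM in EV, 6.89 CPM in TC and 10.6, 10.2 and 10.2 CPM in TC + ATA, and a log2 fold change of −1.15 (SE 0.12, edgeR adjusted p = 0.000128). For both genes the TC + ATA libraries lay between the TC library and the EV libraries without overlap. Fgf2, the basic fibroblast growth factor, was higher in TC, with 7.89 and 7.57 CPM in EV, 15.5 CPM in TC and 9.94, 9.45 and 11.3 CPM in TC + ATA. Its log2 fold change was 1.01 from EV to TC (SE 0.13, edgeR adjusted p = 0.000598) and 0.40 from EV to TC + ATA (edgeR adjusted p = 0.0159), and 13.2% of its exonic bases overlap Nudt6 or Gm43439.

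Fgf21, an endocrine member that needs the co-receptor beta-klotho, had 123 and 137 counts in EV, 205 in TC and 137, 212 and 159 in TC + ATA. Its log2 fold change of 0.78 from EV to TC (edgeR adjusted p = 0.0474) was called by a narrow margin and lost in DESeq2 (adjusted p = 0.0689). In edgeR the call was also lost with libraries scaled by size alone, with the replicate number as a block and with only the EV and TC libraries. Leaving out any 1 of the TC + ATA libraries lost it too. Klb, which encodes beta-klotho, had 2 to 7 counts per library and was not tested. Fgf18 had 23 and 39 counts in EV, 5 in TC and 6, 1 and 5 in TC + ATA, and was lower in TC + ATA than in EV (log2 fold change −2.69, SE 0.71, edgeR adjusted p = 0.0168), a call that was lost without EV replicate 2 (edgeR adjusted p = 0.0861) and without TC + ATA replicate 3 (edgeR adjusted p = 0.0562). Fgf1 and Fgf13 had at most 12 and 28 counts in a library and were not called in any comparison, and Fgf5 and Fgf9 were not tested.

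No FGF receptor was called from EV to TC. Fgfr1 (chromosome 8, 25513654 to 25575718), the main FGF receptor of fibroblasts, had 316 and 321 CPM in EV, 364 CPM in TC and 382, 378 and 366 CPM in TC + ATA. Fgfr2, whose splice forms the gene counts do not separate, had 47.5 and 53.9 CPM in EV, 55.9 CPM in TC and 64.3, 62.5 and 58.2 CPM in TC + ATA. The log2 fold changes from EV to TC were 0.19 and 0.14, with 95% intervals of 0.01 to 0.38 and −0.09 to 0.37, and adjusted p-values of 0.118 and 0.353 from edgeR. The exons of Fgfr2 overlap Ctbp2, with 1793 to 2499 counts per library, over 3.04% of their bases. From EV to TC + ATA the log2 fold changes were 0.24 and 0.28 (edgeR adjusted p = 0.0153 and 0.0186), and both calls were lost when TC + ATA replicate 1 was left out (adjusted p = 0.0896 and 0.0800 from edgeR). Fgfr4 had 4 to 26 counts per library and was not called, and Fgfr3 had at most 9 and was not tested.

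Hgf and its receptor Met were both lower in TC, to very different degrees. Hgf (chromosome 5, 16553495 to 16620152), the hepatocyte growth factor gene expressed by mesenchymal cells, had 18.5 and 22.0 CPM in EV, 3.30 CPM in TC and 2.66, 2.51 and 2.55 CPM in TC + ATA. Every TC-expressing library was below 4 CPM, against above 18 CPM in either EV library, and the log2 fold change of −2.62 (SE 0.17, edgeR adjusted p = 7.33e-06), 6.13-fold lower, was the largest fall among the called members. From EV to TC + ATA the fall was 2.98 on the log2 scale (SE 0.11, edgeR adjusted p = 2.27e-07). Met (chromosome 6, 17463800 to 17573980) had 118 and 116 CPM in EV, 85.3 CPM in TC and 73.2, 70.9 and 67.6 CPM in TC + ATA. The log2 fold change of Met was −0.45 from EV to TC (SE 0.08, edgeR adjusted p = 0.00356) and −0.73 from EV to TC + ATA (edgeR adjusted p = 2.13e-05). The first of these calls was lost with only the EV and TC libraries in the fit (edgeR adjusted p = 0.0635). Mst1r, which encodes the related receptor RON, had 4 to 11 counts per library and was not called.

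Kitl and Gdnf rose in TC while the genes of their receptors stayed at or near 0. Kitl (chromosome 10, 100015630 to 100100416), which encodes stem cell factor, had 36.9 and 40.1 CPM in EV, 102 CPM in TC and 103, 101 and 103 CPM in TC + ATA. The 4 TC-expressing libraries lay within 2 CPM of each other, and the log2 fold change was 1.40 from EV to TC (SE 0.08, edgeR adjusted p = 3.81e-06) and 0.01 from TC to TC + ATA, with a 95% interval of −0.16 to 0.19. Kit, the receptor of stem cell factor, was detected in 1 library with 2 counts. Gdnf (chromosome 15, 7810846 to 7837575), a neurotrophic factor that acts through RET and the co-receptor GFRA1, had 4.06 and 4.29 CPM in EV, 17.2 CPM in TC and 13.2, 13.9 and 12.7 CPM in TC + ATA. This was the largest rise among the called members, 4.11-fold with a log2 fold change of 2.04 (SE 0.12, edgeR adjusted p = 4.26e-06). Ret had 4 to 23 counts per library and was not called. Gfra1 was present, with 2.90 and 3.12 CPM in EV, 7.06 CPM in TC and 4.19, 4.23 and 4.31 CPM in TC + ATA, and rose in TC by 1.23 on the log2 scale (edgeR adjusted p = 0.000561).

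The neurotrophin gene Bdnf was lower in TC, with 68.8 and 77.2 CPM in EV, 48.1 CPM in TC and 44.5, 47.6 and 49.5 CPM in TC + ATA. Its log2 fold change was −0.60 (SE 0.10, edgeR adjusted p = 0.00242), and −0.63 from EV to TC + ATA (edgeR adjusted p = 0.000192). The exons of Bdnf share 14.4% of their bases with Gm45346 on the opposite strand, which had 5 to 10 counts per library. Its receptor gene Ntrk2 had at most 6 counts in a library and Ntf3 at most 6, and neither was tested, while Ntrk3 had at most 11 and was not called. Ngfr, the low-affinity neurotrophin receptor, had 8 to 33 counts per library and was not called.

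The remaining receptors have ligands outside the set, or none that is settled. Tyro3, a receptor for GAS6 and protein S, had 31.4 and 30.7 CPM in EV, 47.5 CPM in TC and 46.9, 47.9 and 42.4 CPM in TC + ATA, and rose by 0.61 on the log2 scale from EV to TC (SE 0.10, edgeR adjusted p = 0.00143). Mertk, of the same family, had 10.2 and 10.7 CPM in EV, 12.5 CPM in TC and 13.2, 12.6 and 12.8 CPM in TC + ATA, and was called only from EV to TC + ATA (0.30, edgeR adjusted p = 0.0216), a call lost when libraries were scaled by size alone (edgeR adjusted p = 0.116). Leaving out any 1 of the TC + ATA libraries also lost the call of Mertk. Axl, the third receptor of that family, is no member of the set and was chosen after its values were seen. It stood at 293 RPKM in TC against 7.66 for Tyro3 and 2.88 for Mertk, and rose by 0.96 on the log2 scale (edgeR adjusted p = 0.000108). Their ligand genes Gas6 and Pros1 had log2 fold changes of −0.24 and −0.17 from EV to TC and were not called (edgeR adjusted p = 0.193 and 0.240). Ptk7 (chromosome 17, 46564471 to 46629504), a kinase-inactive receptor of WNT signaling, had 128 and 135 CPM in EV, 86.6 CPM in TC and 101, 97.5 and 90.1 CPM in TC + ATA, and fell by 0.60 on the log2 scale in TC (SE 0.09, edgeR adjusted p = 0.00132). Insr, the insulin receptor gene, had 25.9 and 27.7 CPM in EV, 30.8 CPM in TC and 30.3, 30.3 and 30.3 CPM in TC + ATA, and was called in neither comparison with EV (adjusted p = 0.136 for TC and 0.0734 for TC + ATA, both from edgeR), while the insulin genes Ins1 and Ins2 had 0 counts in every library.

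Csf1r, the receptor for CSF1 and interleukin 34 that marks macrophages, had 237 and 211 counts in EV, 98 in TC and 98, 60 and 80 in TC + ATA. It was lower in TC + ATA than in EV (log2 fold change −1.27, SE 0.28, edgeR adjusted p = 0.00709), and the estimate from EV to TC was −1.07 (edgeR adjusted p = 0.0769). The exons of Csf1r overlap Hmgxb3, on the opposite strand, over 15.1% of their bases. Hmgxb3 had 2064 to 2851 counts per library, so a part of the reads given to Csf1r may belong to Hmgxb3. In CPM, Hmgxb3 had 34.7 and 37.4 in EV, 37.5 in TC and 36.3, 32.9 and 35.5 in TC + ATA. The part of this overlap in the change of Csf1r was not tested. The macrophage markers Cd68 and Adgre1 reached at most 3.68 and 0.106 CPM, and Csf1r itself had 0.846 to 3.17 CPM. Ptprc, another of the blood markers, ran from 0.282 to 5.33 CPM, with both extremes in TC + ATA libraries. Both ligand genes were higher in TC, with log2 fold changes of 0.59 for Csf1 and 1.47 for Il34 (edgeR adjusted p = 0.000915 and 0.000265), and Csf1 stood at 121 RPKM in TC against 0.245 RPKM for its receptor.

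The ratio of ligand to receptor level within each library put these changes side by side, as a description without a test of its own. For Pdgfa over Pdgfra the log2 ratio of RPKM values was −2.15 ± 0.02 (SD, n = 2) in EV, 0.40 in TC and 0.25 ± 0.03 (SD, n = 3) in TC + ATA. Per length, the ligand was thus the lower of the pair in EV and the higher in cells with TAZ-CAMTA1. In CPM Pdgfa stayed below Pdgfra in TC, at 73.8 against 180 CPM. The change of order therefore depends on the exonic lengths used, 3119 bases for Pdgfa and 10024 for Pdgfra. For Hbegf over Egfr it was 1.73 ± 0.05 in EV, 4.24 in TC and 3.52 ± 0.10 in TC + ATA. For Ereg over Egfr the values were 1.68 ± 0.12, 4.08 and 3.69 ± 0.09 in the same order. Both EGF-like ligands rose as their receptor fell, which widened these ratios. For Fgf7 over Fgfr2 the log2 ratio was 3.89 ± 0.03 in EV, 1.71 in TC and 2.03 ± 0.08 in TC + ATA. For Hgf over Met it was −2.44 ± 0.19 in EV, −4.60 in TC and −4.68 ± 0.05 in TC + ATA. In the first of these pairs Fgf7 fell and Fgfr2 was not called lower, and in the second both genes fell. The Fgfr2 counts join its splice forms, so ratios over Fgfr2 do not give the level of the form that FGF7 and FGF10 bind.

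**Figure D3:**
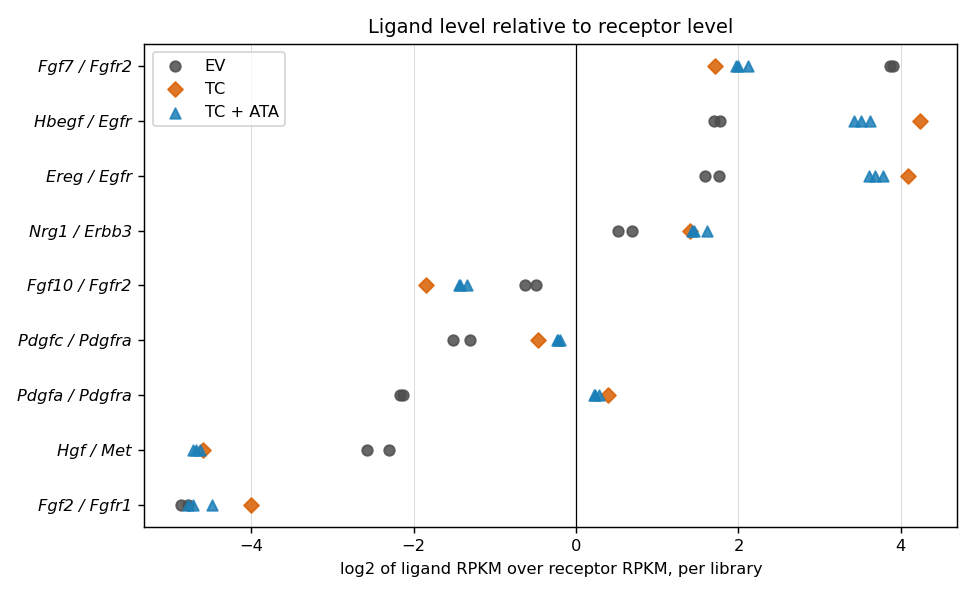
Log2 of the ligand RPKM over the receptor RPKM in every library, for the 9 pairs of members in which both genes had a mean of at least 5 CPM. Circles are EV, diamonds TC and triangles TC + ATA, and 0 marks equal levels per length. In all 4 TC-expressing libraries 6 pairs lie further right than in EV, with hardly any gap for Fgf2 / Fgfr1, and Fgf7 / Fgfr2, Fgf10 / Fgfr2 and Hgf / Met lie further left.

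Promoter sequence was read for the members because TEAD factors bind DNA, often beside AP-1 elements. RefSeq windows from 250 bases before to 50 after each start, in the GRCm38.p6 assembly, matched 36 of the 49 members with 56 windows. The letters GGAATG, the core of the TEAD element, were searched on both strands and occurred for 5 of these 36 genes (13.9%), against 16.6% of the 27025 genes with a window, and in 14.7% of all 32851 windows. The letters TGANTCA, the AP-1 element, which reads the same on both strands, occurred for 4 of the 36 (11.1%), against 8.97% of all genes and 7.81% of all windows. The genes with the TEAD core were Erbb2, which rose in TC, Ptk7 and Bdnf, which fell, and Pdgfc and Fgfr4, which were not called, and the AP-1 letters were found for Ddr1, Met, Bdnf and Fgf13. For each element 1 stretch of a member that rose and 1 of a member that fell are shown, with the element in capitals, since both elements occurred with changes in either direction. The Ddr1 window is 1 of 4 listed for the gene, and the others have 1 each.
Erbb2: cccagtcttgctGGAATGcagttggagggg
Ptk7: ccccccccccatCATTCCccagatccttct
Ddr1: actgggcagtgTGAGTCAcgggcgtgagg
Met: tgttgcccggcTGAGTCAcgggccgggca

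The stretches, written 5′ to 3′ on the strand of each gene, lie at chr11:98412384-98412413 (plus strand), chr17:46629588-46629617 (minus strand), chr17:35702178-35702206 (minus strand) and chr6:17463892-17463920 (plus strand). The first base of the element is 88 bases before the start in Erbb2, 101 in Ptk7, 151 in Ddr1 and 54 in Met. A match gives letters and not occupancy, and distal enhancers, where TEAD factors often bind, were not searched.

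Between TC + ATA and TC no member was called at an adjusted p of at most 0.05 by edgeR, against 0.426% of all genes tested called higher and 0.156% called lower. At an unadjusted p under 0.05, 6 members were higher and 7 lower, against 5.65% and 3.95% of all genes tested. These were Pdgfrb, Fgf7, Fgf10, Egfr, Pdgfc and Fgf1 on the higher side, and Btc, Fgf2, Hbegf, Met, Gdnf, Hgf and Areg on the lower side. For 13 of the 40 tested members each of the 3 TC + ATA libraries exceeded the TC library and for 14 each was below it, against 30.5% and 32.7% of all genes. The median log2 fold change was −0.03 over the tested members and 0.00 over all genes tested. DESeq2 called Fgf7, Fgf10 and Pdgfrb higher and Fgf2 and Btc lower, with adjusted p-values of 0.00110, 0.0244, 0.000322, 0.0356 and 0.0293. In edgeR the adjusted p-values of these 5 were 0.0608, 0.0701, 0.0545, 0.0948 and 0.0701. When edgeR was fitted without the EV libraries, they no longer entered the estimate of the spread. In that fit 4 members were called higher and 5 lower, namely the same 5 with Pdgfc higher and Gdnf, Hbegf and Met lower. Of the 18000 genes tested there, 795 were called higher and 633 lower, and DESeq2 called 236 and 84 of 14350.

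The members with the smallest p-values from TC to TC + ATA were Pdgfrb, Fgf7, Btc and Fgf10. Pdgfrb had a log2 fold change of 0.50 (SE 0.09, unadjusted p = 0.000368 from edgeR), and Fgf7 of 0.46 (SE 0.08, unadjusted p = 0.000446 from edgeR). Fgf10 was 0.59 (SE 0.11), with 10.2 to 10.6 CPM in the 3 TC + ATA libraries against 6.89 CPM in TC. Btc had the largest difference of the 4, −2.04 (SE 0.39, unadjusted p = 0.000592 from edgeR), with 12 to 24 counts in TC + ATA against 81 in TC. Fgf2 followed with −0.60 (95% interval −0.89 to −0.32), and Hbegf, Gdnf and Met had estimates of −0.37, −0.37 and −0.27. For Pdgfra, Ereg, Erbb2, Bdnf and Tyro3 the estimates lay between −0.07 and −0.02, with 95% intervals of −0.19 to 0.15 for Pdgfra and −0.26 to 0.19 for Ereg. All of these values rest on 1 TC library, which is also the treated side of TC versus EV, so that an unusual value in that library would move both comparisons in opposite directions.

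**Figure D4:**
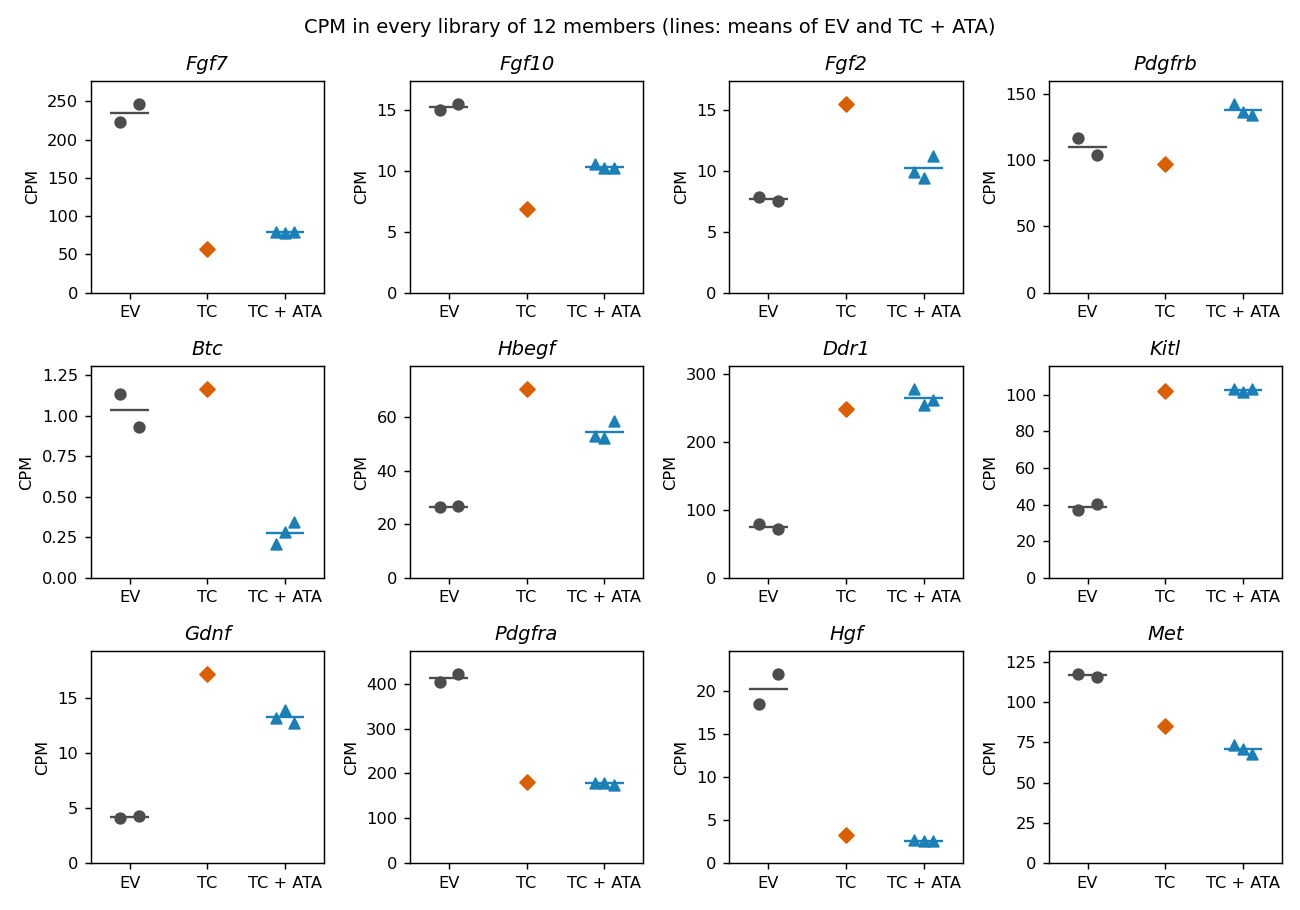
CPM in every library of 12 members, on axes that start at 0, with EV as circles, TC as diamonds and TC + ATA as triangles, and lines at the means of the replicated groups. Ddr1, Kitl, Gdnf and Hbegf lie above EV, and Pdgfra, Hgf, Met, Fgf7 and Fgf10 below it, in all TC-expressing libraries. Btc is at 0.931 to 1.17 CPM in EV and TC and at 0.211 to 0.345 CPM in TC + ATA.

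The rest of the pathway was read from lists of other genes, counted over the genes that passed the filter. Of 25 tested among 35 other receptor tyrosine kinases, 7 rose and 6 fell from EV to TC, against 14.8% and 13.2% of all genes tested. Of 26 tested among 38 other ligands, 7 rose, Csf1 and Il34 among them, and 2 fell, Angpt1 at −2.11 and Igf1 at −2.33 on the log2 scale (edgeR adjusted p = 0.00182 and 2.3e-05). Of 14 tested among 21 co-receptors, 5 rose, Gfra1 among them, and 4 fell (Gfra2, Nrp1, Sdc1 and Sdc3). Of 43 tested among 45 adaptors and effectors of RAS-MAPK and PI3K signaling, 9 rose and 12 fell, of 18 among 19 genes that restrain receptor signaling 4 rose (Cbl, Lrig3, Ptprj and Ubash3b) and 4 fell, and of 19 among 21 genes of ligand shedding and processing 3 rose (Adam9, Plau and Rhbdf1) and 5 fell. The median log2 fold changes of these 6 lists lay between −0.06 and 0.40, against −0.03 over all genes tested.

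From TC to TC + ATA, 4 of the 145 tested genes of these lists were called, 3 higher and 1 lower, against 0.426% and 0.156% of all genes tested. Errfi1, which encodes the EGFR inhibitor MIG6, was lower, with 116 and 111 CPM in EV, 107 CPM in TC and 71.0, 79.7 and 76.3 CPM in TC + ATA and a log2 fold change of −0.50 (edgeR adjusted p = 0.0426). Timp3, which encodes an inhibitor of metalloproteinases that shed EGF-like ligands, was higher (0.60, edgeR adjusted p = 0.0251), as were the ephrin receptor gene Epha4 (0.87, edgeR adjusted p = 0.0426) and the TIE2 ligand gene Angpt2 (1.26, edgeR adjusted p = 0.0447). Timp3 and Epha4 had log2 fold changes of −0.90 and −1.96 from EV to TC, which rest on the same TC library, and Errfi1 and Angpt2 were not called there (−0.08 and 0.12). All 4 calls were lost when any 1 of the TC + ATA libraries was left out, with adjusted p-values from edgeR of 0.0937 to 0.246, and DESeq2 called all 4.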

How the data were processed

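Bulk RNA-Seq of NIH3T3 cells was measured in 6 libraries, with 2 for EV, 1 for TC and 3 for TC + ATA by their labels. Per the study's methods, the authors aligned paired-end reads to the murine genome GRCm38.p6 with HISAT2 (2.2.1 in the submitters' processing notes), counted them per gene with featureCounts and deposited 1 table of raw counts for each library. The annotation release and the strand setting are not given in the sources used here. Gene symbols, positions and exonic lengths were taken from GENCODE M21.

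From these counts, edgeR 4.0.16 in R 4.3.3 (filterByExpr, TMM, quasi-likelihood test) was fitted to all 6 libraries with group as the only term, with Benjamini-Hochberg adjustment over the 18539 genes tested and a call at an adjusted p of at most 0.05. The edgeR test was run on simulated counts for TC + ATA versus EV, and not for the comparisons that use the single TC library. The simulated libraries all had the same spread for a gene, unlike the EV and TC + ATA libraries. No result given here rests on that run. The study itself added a limit of 2 on the absolute log2 fold change, which is tried as an alternative. The other alternatives were scaling by library size, RLE or upper quartile, DESeq2 1.42.0, a fit of only the 2 groups compared, both other count filters, the replicate number as a block, and leaving out each EV and TC + ATA library in turn. Between 60.4% and 62.9% of the counts from 1 to 20 were even, so small counts may not be counts of single fragments and counting limits may be too narrow.

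The members and gene lists were chosen with earlier results of these data known. Values in every library are given for members called with an absolute log2 fold change of at least 1 against EV, for the 4 members with the smallest p in TC + ATA versus TC and for members with a mean of at least 50 CPM. Other members serve as examples or are given by ranges and counts. Genes outside the set are named where they pair with a member or where at most 4 of a list were called in a direction. The genes that fell in the list of restraints on receptor signaling are counted but not named here.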

Additional observations from a re-analysis of the deposited data

How the results depend on the processing

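Among the 27 members that the naming rule picks, no fold change called in the main fit or in an alternative had opposite signs in both. Changes of sign where neither fit called the member were not counted. Of the members called in TC versus EV, 10 of 12 higher and 8 of 9 lower stayed called under all 13 alternatives, with Fgf21, Pdgfb and Met lost under at least 1. In TC + ATA versus EV 11 of 17 and 12 of 13 did, with Fgf2, Fgf21, Fgfr1, Fgfr2, Mertk, Nrg1 and Fgf18 lost under at least 1. Requiring a log2 fold change of at least 2 in size left 1 member higher and 2 lower between TC and EV. Between TC + ATA and EV it left 0 and 2. Of all 18539 genes tested, 438 and 236 met it between TC and EV, and 520 and 197 between TC + ATA and EV. Scaling by library size left 11 members higher in TC + ATA versus EV, and moved the median log2 fold change of all genes to −0.13 in TC versus EV. For TC + ATA against TC, where no member was called, DESeq2 called 3 higher and 2 lower, the fit of only the groups compared 4 and 5, no filter on low counts 3 and 3, the filter at 1 CPM 1 higher and scaling by library size 1 higher.

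Leaving out 1 TC + ATA library gave 10 to 11 members higher and 9 to 10 lower for TC against EV. For TC + ATA against EV it gave 12 higher and 12 to 13 lower, and for TC + ATA against TC none. Leaving out an EV library left 1 in that group, and members were then called in both directions for TC + ATA against TC. More of all genes tested were also called in that comparison. Replicate numbers 1 and 2 are shared by EV and TC + ATA, but deviations of same-numbered libraries correlated at −0.0161 and −0.164 and come from a single EV difference, which cannot settle whether the numbers pair them, and the 1 TC library also carries number 1. With the replicate block, 11 members were higher and 9 lower for TC against EV, 12 and 12 for TC + ATA against EV and 0 and 0 for TC + ATA against TC.

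Over all genes tested in TC + ATA versus TC, 79 were called higher and 29 lower, against 236 and 84 by DESeq2, 242 and 108 without the filter, 795 and 633 with only the groups compared, 32 and 8 with the block, 707 and 762 without EV replicate 1, 808 and 608 without EV replicate 2, and 28 and 12, 21 and 7 or 7 and 3 without TC + ATA replicate 1, 2 or 3. In TC versus EV they numbered 2735 and 2456, against 1717 and 1467 with the block, and 3708 lower without EV replicate 1. In TC + ATA versus EV, 3449 were lower, against 2195 with the block. The cause of these differences was not tested. The 14 tested members below 5 CPM had larger standard errors than the other 26 in each comparison.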
